A study of Arabidopsis thaliana with 15 samples.

Results

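The transcriptome of Arabidopsis thaliana rosettes carrying the MED5B allele ref4-3 in a cdk8-1 background (ref4-3 cdk8-1) was set against that of rosettes carrying the other MED5B allele, ref4-1. This comparison used 6 of the 15 libraries of the series, 3 of ref4-3 cdk8-1 and 3 of ref4-1, chosen by their genotype labels. The ref4-3 (3 libraries), cdk8-1 (3) and WT (3) rosettes served as points of reference. All 5 genotypes are in the Columbia-0 ecotype. Plants were 20 days old, grown at 23 C with 16 h of light and 8 h of dark, and harvested 6.5 h after subjective dawn. Each library came from 5 whole rosettes pooled from different pots, so no value belongs to 1 plant or 1 cell type. The series is described as biological triplicates; each mutant is 1 line, and the sources used here do not say whether the pools came from separate sowings, so p-values measure the spread between these pools.

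Mediator is the large complex that passes signals from DNA-bound transcription factors to RNA polymerase II. MED5B (also called REF4) and its paralogue MED5A belong to the tail of the complex, and CDK8 is the kinase of a separable module that can hold Mediator away from the polymerase. Both ref4 alleles are dominant-acting amino acid substitutions in MED5B that lower phenylpropanoid products such as lignin and sinapate esters; ref4-3 plants are strongly stunted, ref4-1 plants are less affected, and loss of CDK8 is known to relieve much of the stunting of ref4-3 plants. The question put to the data here is therefore whether the strong allele without CDK8 resembles the weak allele.

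Reads in genes numbered 13418083 to 15080524 in the ref4-3 cdk8-1 libraries and 9573567 to 16803904 in the ref4-1 libraries. Levels are given as CPM, the read count of a gene scaled to the size of its library after TMM scaling, and means as mean ± SD over 3 libraries. The test covered the 18935 genes whose level passed 1 CPM in 3 or more libraries of the series. Fold changes and adjusted p-values come from edgeR's quasi-likelihood test with Benjamini-Hochberg adjustment over those genes, with the standard error (SE) on the log2 scale, and a gene was called at an adjusted p under 0.05. Replicate 3 of ref4-1 stood apart from the other 2: the chi-square per degree of freedom of its counts against theirs was 15.1 and 11.9, against 5.32 between those 2 and 2.86 to 3.42 among the ref4-3 cdk8-1 libraries. It was also the shallowest library, and 6.62% of its reads, relative to the reads in genes, had no unique position. Its values are therefore given with the others where single libraries are listed. The main counts over all genes, and some list counts, are repeated without it.

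Short stretches of DNA upstream of 4 genes are shown as chosen examples, which do not stand for their groups. They were chosen because the cold and drought genes were among the greatest rises and the defensins among the greatest falls. RD29B, RD29A and COR15A are cold- and drought-induced genes, and PDF1.2A is a jasmonate- and ethylene-induced defensin gene. Each line gives the 300 bases that end just before the annotated transcript start in TAIR10.1, read 5' to 3' on the gene's own strand. Capitals mark, on either strand, the DRE core CCGAC (bound by CBF and DREB factors) and the G-box CACGTG in the first 3 sequences and the GCC box GCCGCC (bound by ethylene response factors) in the fourth; no base fell in both marked motifs.
RD29B, chr5:21236721-21237020, plus strand: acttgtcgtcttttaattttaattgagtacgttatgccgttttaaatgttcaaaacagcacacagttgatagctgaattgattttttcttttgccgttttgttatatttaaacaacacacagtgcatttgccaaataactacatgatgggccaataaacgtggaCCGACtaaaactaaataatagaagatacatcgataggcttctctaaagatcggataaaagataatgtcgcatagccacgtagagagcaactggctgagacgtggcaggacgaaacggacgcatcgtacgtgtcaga
RD29A, chr5:21240417-21240716, plus strand: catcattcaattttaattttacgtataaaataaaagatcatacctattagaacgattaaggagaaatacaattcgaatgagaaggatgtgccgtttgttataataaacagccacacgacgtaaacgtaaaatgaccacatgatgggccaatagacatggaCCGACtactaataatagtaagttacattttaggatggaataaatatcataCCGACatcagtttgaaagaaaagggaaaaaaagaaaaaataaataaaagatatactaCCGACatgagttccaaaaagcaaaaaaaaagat
COR15A, chr2:17712331-17712630, minus strand: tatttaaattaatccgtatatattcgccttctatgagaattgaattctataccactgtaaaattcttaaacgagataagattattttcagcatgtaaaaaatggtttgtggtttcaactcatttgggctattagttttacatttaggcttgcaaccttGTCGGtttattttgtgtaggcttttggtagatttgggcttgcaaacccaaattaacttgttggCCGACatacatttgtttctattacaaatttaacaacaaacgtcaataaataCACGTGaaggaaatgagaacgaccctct
PDF1.2A, chr5:17907639-17907938, minus strand: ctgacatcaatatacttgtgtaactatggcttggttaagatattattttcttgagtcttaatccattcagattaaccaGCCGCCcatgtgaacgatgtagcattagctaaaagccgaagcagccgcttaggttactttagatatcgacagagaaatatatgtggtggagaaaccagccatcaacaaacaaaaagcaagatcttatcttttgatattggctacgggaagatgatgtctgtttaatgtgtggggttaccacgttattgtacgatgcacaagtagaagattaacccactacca

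The RD29A window holds 3 DRE cores and the RD29B window 1, while COR15A has 2 DRE cores and 1 G-box and PDF1.2A has 1 GCC box. Only the full letters CACGTG were searched for as the G-box. Related letters such as ACGTG, which occur unmarked in the RD29B window, are not covered. Over the same 300 bases of 18870 tested genes, 15.1% held a DRE core, 8.11% a G-box and 2.42% a GCC box. Of the 9 tested genes of the defensin list, 3 (33.3%) held a GCC box. Of the 20 tested genes of the cold and abscisic acid list, 8 (40.0%) held a DRE core, against 15.4% of the 454 genes called at least 2-fold higher in ref4-3 cdk8-1. A G-box stood before 13.7% of those 454 genes and before 9.46% of the 1184 genes with a promoter window that were called at least 2-fold lower. A heat shock element (GAANNTTC) was found before 18.4% of the genes at least 2-fold lower, 10.4% of those at least 2-fold higher and 11.5% of all. The letters TTGACC, a form of the W-box, stood before 17.57%, 12.8% and 13.8% of the same 3 sets, and before 0 of the 26 salicylic acid genes. Other forms of the W-box were not searched for, so these shares do not cover all W-boxes. An evening element (AAATATCT) stood before 5.91%, 9.91% and 5.90%. These shares describe letters in a window, and no binding was measured.

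Over all tested genes, ref4-3 cdk8-1 rosettes were not close to ref4-1 rosettes. The root mean square distance of log2 CPM to the mean ref4-1 profile was 0.671, 0.700 and 0.655 in the 3 ref4-3 cdk8-1 libraries, with a mean of 0.675 ± 0.0228 (SD). The ref4-3 libraries lay at 0.334, 0.361 and 0.356, nearer to ref4-1 than any ref4-3 cdk8-1 library. The WT libraries lay at 0.479, 0.510 and 0.483 and the cdk8-1 libraries at 0.702, 0.705 and 0.682. The ref4-1 libraries themselves, each against the mean of the other 2, lay at 0.273, 0.265 and 0.364, the highest being replicate 3.

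The distance of ref4-3 cdk8-1 exceeded that of ref4-3 by 0.325 and that of WT by 0.185, and neither pair of groups overlapped. In the exact two-sided permutation test of 3 against 3 libraries both gave p = 0.1, the smallest p this design allows (0.15 after adjustment over 3 comparisons). Against cdk8-1 the difference was -0.0207 in the same exact permutation test (p = 0.2, adjusted p = 0.2). A like distance to ref4-1 does not make these genotypes alike. Between ref4-3 cdk8-1 and cdk8-1, 6187 of the 18935 genes were called, 1016 of them at least 2-fold apart. Without replicate 3 of ref4-1 the distance of ref4-3 cdk8-1 exceeded that of ref4-3 by 0.331.

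**Figure D1:**
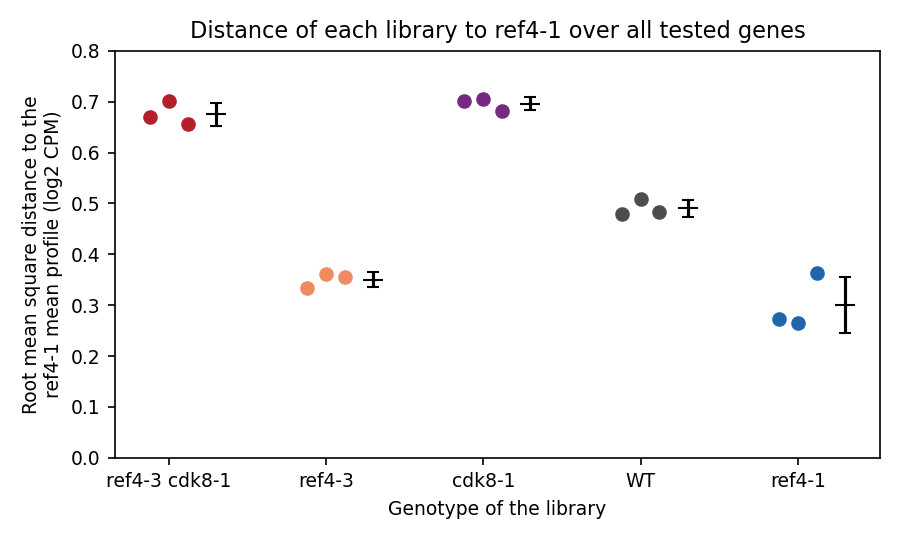
Root mean square distance of each library to the mean ref4-1 profile, in log2 CPM over 18935 genes, by genotype; points are libraries and the bars beside them show the mean ± SD (n = 3), with each ref4-1 library measured against the other 2. The ref4-3 cdk8-1 libraries, at 0.655 to 0.700, sit above the ref4-3 libraries, at 0.334 to 0.361, and the WT libraries, at 0.479 to 0.510. Their distances overlap those of the cdk8-1 libraries, at 0.682 to 0.705, which does not place these genotypes near each other.

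Of the 18935 genes, 6878 (36.3%) were called between ref4-3 cdk8-1 and ref4-1, 3251 higher (17.2%) and 3627 lower (19.2%). Between ref4-3 and ref4-1, which share a mutated gene but not an allele, 2095 (11.1%) were called, 882 higher (4.66%) and 1213 lower (6.41%). A difference of at least 2-fold was called for 1643 genes (8.68%) in ref4-3 cdk8-1 against ref4-1, of which 454 were higher (2.4%) and 1189 lower (6.28%). The same count for ref4-3 against ref4-1 was 187 (0.988%). Libraries of both groups did not overlap for 8865 genes (46.8%) in the first comparison and 5275 (27.9%) in the second. The 2 comparisons share the ref4-1 libraries, so their counts stand side by side and their overlap is not reported.

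Resemblance was also measured directly, by asking for how many genes the 95% interval of the fold change lay within 1.5-fold in either direction. This held for 12154 genes (64.2%) between ref4-3 cdk8-1 and ref4-1 and for 14012 (74%) between ref4-3 and ref4-1. Of the 12154 genes, 2636 were called all the same, with small differences. A further 2539 genes (13.4%) were neither called nor shown to lie within 1.5-fold. Without replicate 3 of ref4-1, 6228 genes were called between ref4-3 cdk8-1 and ref4-1, 439 at least 2-fold higher and 1167 at least 2-fold lower, 12079 lay within 1.5-fold, and 1469 were called between ref4-3 and ref4-1. In whole rosettes fewer cells of a type and less RNA per cell cannot be told apart, here and in all values that follow.

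Among the mutated genes, CDK8 (AT5G63610) had 6.57, 5.27 and 4.38 CPM in ref4-3 cdk8-1, against 20.0, 17.9 and 16.5 CPM in ref4-1, with no overlap (log2 fold change -1.75 ± 0.12 SE, adjusted p = 2.09e-10). Its mean was 4.50 ± 0.170 CPM in cdk8-1 and 19.4 ± 1.28 CPM in WT, so both genotypes labelled cdk8-1 carried a lowered transcript that was still counted. MED5B (AT2G48110) had 23.64, 22.9 and 22.7 CPM in ref4-3 cdk8-1, against 27.7, 27.3 and 29.7 CPM in ref4-1 (log2 fold change -0.29 ± 0.09 SE, adjusted p = 0.0157), a small fall in which the groups did not overlap. MED5A (AT3G23590) had 31.4, 34.6 and 28.02 CPM in ref4-3 cdk8-1, against 34.5, 35.6 and 30.7 CPM in ref4-1 and was not called (log2 fold change -0.11 ± 0.086 SE, adjusted p = 0.362). Because the ref4 alleles are substitutions, the MED5B transcript level does not check those labels.

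Of the 17 Mediator subunit genes, 3 were called higher and 2 lower (36.3% of all genes were called), and for 16 the interval lay within 1.5-fold, all but CDK8. The list's median log2 fold change was 0.10, against -0.000232 for all genes. MED12, a subunit of the kinase module, and MED15A, a tail subunit, were higher by 0.34 and 0.35 on the log2 scale. The same 2 genes were 0.31 and 0.30 higher in ref4-3 against ref4-1, again called (adjusted p = 0.0276 and 0.00818).

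The genes through which ref4-1 rosettes differ most from WT fell into 3 kinds in ref4-3 cdk8-1. The 8 greatest rises and 8 greatest falls of ref4-1 against WT were taken, a comparison that shares the ref4-1 libraries and in which 3975 genes (21%) were called, so their levels are given as a description. DJC66 (AT3G13310), a gene for a small J-domain chaperone, had 217, 207 and 237 CPM in ref4-3 cdk8-1, against 296, 312 and 402 CPM in ref4-1. KFB39 (AT2G44130), whose product targets phenylalanine ammonia-lyase for breakdown, had 162, 141 and 152 CPM in ref4-3 cdk8-1, against 241, 249 and 293 CPM in ref4-1. Both were lower in every ref4-3 cdk8-1 library than in any ref4-1 library (log2 fold change -0.61 ± 0.091 SE, adjusted p = 2.96e-05 for DJC66; log2 fold change -0.78 ± 0.093 SE, adjusted p = 2.64e-06 for KFB39) but far above the WT means of 14.9 ± 1.81 CPM and 7.83 ± 1.32 CPM.

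The defensin-like gene AT3G59930 behaved likewise at 35.2, 30.4 and 30.5 CPM in ref4-3 cdk8-1, against 101, 113 and 129 CPM in ref4-1, with 1.16 ± 0.0363 CPM in WT (log2 fold change -1.83 ± 0.10 SE, adjusted p = 3.08e-11). ELIP1, which encodes an early light-induced chlorophyll-binding protein, had 34.8, 35.2 and 50.3 CPM in ref4-3 cdk8-1, against 26.6, 30.9 and 27.2 CPM in ref4-1, with 0.792 ± 0.340 CPM in WT (log2 fold change 0.50 ± 0.16 SE, adjusted p = 0.0234). DIP2, annotated as an E3 ubiquitin-protein ligase, had 25.1, 31.7 and 35.1 CPM in ref4-3 cdk8-1, against 19.3, 18.9 and 16.98 CPM in ref4-1, with 1.86 ± 0.597 CPM in WT (log2 fold change 0.73 ± 0.15 SE, adjusted p = 0.00157). These 5 of the 8 risers were thus high in both mutants. The call of ELIP1 was lost when replicate 1 or 3 of ref4-1 or replicate 3 of ref4-3 cdk8-1 was left out (log2 fold change 0.45, 0.48 and 0.30).

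The other 3 risers were near the WT level in ref4-3 cdk8-1. AT4G10860, an uncharacterised gene, had 0.286, 0 and 0.365 CPM in ref4-3 cdk8-1, against 10.4, 11.5 and 7.91 CPM in ref4-1 and 0.142 ± 0.131 CPM in WT (log2 fold change -5.54 ± 0.44 SE, adjusted p = 1.06e-07). SBT3.3, a subtilase gene, had 1.86, 1.14 and 1.46 CPM in ref4-3 cdk8-1, against 26.7, 23.2 and 19.7 CPM in ref4-1 and 2.12 ± 0.302 CPM in WT (log2 fold change -3.98 ± 0.25 SE, adjusted p = 5.57e-09). ATGLR1.2, a glutamate receptor-like gene, had 1.64, 0.635 and 1.24 CPM in ref4-3 cdk8-1, against 12.9, 10.6 and 9.70 CPM in ref4-1 and 1.05 ± 0.206 CPM in WT (log2 fold change -3.26 ± 0.26 SE, adjusted p = 9e-09). In ref4-3, which has CDK8, the 3 genes averaged 7.32, 36.03 and 19.2 CPM.

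Among the 8 falls, 6 were lower still in ref4-3 cdk8-1: the 4 PDF1 defensins, the legume lectin gene AT3G15356 and the acyltransferase gene AT5G61160. AT3G15356 had 3.21, 2.09 and 3.87 CPM in ref4-3 cdk8-1, against 17.8, 26.5 and 17.2 CPM in ref4-1 (log2 fold change -2.78 ± 0.32 SE, adjusted p = 4.38e-05), and its WT mean was 272 ± 50.1 CPM. The remaining 2 were low in ref4-1 and not in ref4-3 cdk8-1. MRD1 (AT1G53480) had 31.7, 32.3 and 31.4 CPM in ref4-3 cdk8-1, against 0.276, 0.407 and 1.69 CPM in ref4-1 (log2 fold change 5.57 ± 0.24 SE, adjusted p = 1.14e-11), with 30.5 ± 3.31 CPM in ref4-3, 29.0 ± 2.05 CPM in WT and 0.0307 ± 0.0532 CPM in cdk8-1. AT5G35935, an uncharacterised gene, had 24.8, 23.604 and 21.4 CPM in ref4-3 cdk8-1, against 2.00, 1.92 and 1.69 CPM in ref4-1 (log2 fold change 3.61 ± 0.12 SE, adjusted p = 5.75e-16), with 24.04 ± 1.32 CPM in ref4-3, 20.7 ± 1.14 CPM in cdk8-1 and 17.1 ± 0.884 CPM in WT.

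**Figure D2:**
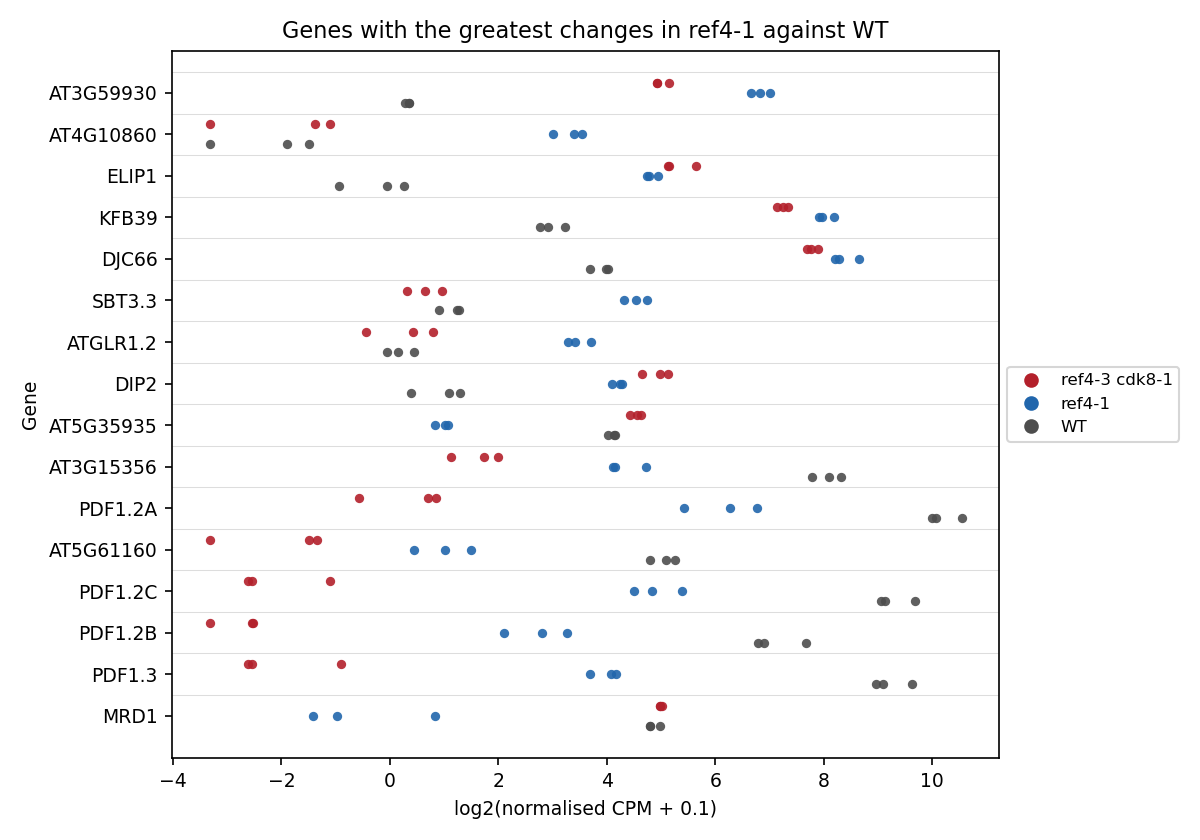
Levels in each library, as log2(CPM + 0.1), of the 16 genes with the greatest rises (upper rows) and falls (lower rows) in ref4-1 against WT; within a row ref4-3 cdk8-1 is above ref4-1 and WT, and a point at the far left has no reads. DJC66, KFB39, AT3G59930, ELIP1 and DIP2 lie with ref4-1, while AT4G10860, SBT3.3, ATGLR1.2, MRD1 and AT5G35935 lie with WT.

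The phenylpropanoid genes, the pathway for which the ref4 mutants were isolated, had a median near 0 against ref4-1, with single genes moving in both directions. In ref4-3 cdk8-1 against ref4-1, 5 of the 23 genes were called higher and 8 lower (17.2% and 19.2% of all genes), and the median log2 fold change was -0.07. For 11 of the 23 the interval lay within 1.5-fold, as it did for 64.2% of all genes. In ref4-1 against WT 3 were higher and 16 lower (10.3% of all genes were lower), with a median of -0.58. The lower calls of ref4-3 cdk8-1 against ref4-1 numbered 5 when replicate 1 or replicate 2 of ref4-3 cdk8-1 was left out.

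Of the entry enzymes, 4CL1 (AT1G51680), a 4-coumarate:CoA ligase, had 38.5, 40.2 and 42.0 CPM in ref4-3 cdk8-1, against 45.6, 48.3 and 47.4 CPM in ref4-1 (log2 fold change -0.23 ± 0.075 SE, adjusted p = 0.0206), both far below the WT mean of 102 ± 3.23 CPM. C4H, the cinnamate hydroxylase, had 67.7, 64.3 and 72.8 CPM in ref4-3 cdk8-1, against 95.7, 92.2 and 83.02 CPM in ref4-1 (log2 fold change -0.41 ± 0.073 SE, adjusted p = 0.000134) and a WT mean of 139 ± 10.2 CPM. FAH1, the hydroxylase that leads to sinapate and syringyl lignin, had 113, 91.4 and 109 CPM in ref4-3 cdk8-1, against 108, 99.7 and 105 CPM in ref4-1 (log2 fold change 0.00 ± 0.075 SE, adjusted p = 0.988, 95% interval -0.15 to 0.16), with 164 ± 4.87 CPM in WT. For 4CL1 and C4H every ref4-3 cdk8-1 library was below every ref4-1 library, while FAH1 overlapped.

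The sinapate ester branch moved in both directions. SNG1, which makes sinapoylmalate, had 248, 235 and 217 CPM in ref4-3 cdk8-1, against 163, 154 and 162 CPM in ref4-1 (log2 fold change 0.55 ± 0.068 SE, adjusted p = 1.23e-06), with 264 ± 15.02 CPM in WT. UGT84A2, the sinapate glucosyltransferase, had 96.0, 90.3 and 109.5 CPM in ref4-3 cdk8-1, against 155, 142 and 166 CPM in ref4-1 (log2 fold change -0.64 ± 0.077 SE, adjusted p = 8.57e-07), with 34.5 ± 1.37 CPM in WT. MYB4, a repressor of C4H, had 57.4, 63.5 and 65.2 CPM in ref4-3 cdk8-1, against 82.4, 86.3 and 104 CPM in ref4-1 (log2 fold change -0.55 ± 0.079 SE, adjusted p = 1.02e-05), with 17.3 ± 0.971 CPM in WT. UGT84A2 and MYB4 were thus raised over WT in both mutants, less so in ref4-3 cdk8-1, and no library of one mutant reached the other. REF1, the aldehyde dehydrogenase of ferulate and sinapate synthesis, was lower (log2 fold change -0.64), and the lignin laccases LAC4 and LAC17 were higher by 0.82 and 0.87 on the log2 scale.

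The Kelch F-box genes have products that target phenylalanine ammonia-lyase or chalcone synthase for degradation. Of the 5 genes, 4 were called lower in ref4-3 cdk8-1 (19.2% of all genes were) and none higher (median -0.49). Without replicate 3 of ref4-1, 1 was called higher. KFB01 (AT1G15670) had 10.997, 9.39 and 10.07 CPM in ref4-3 cdk8-1, against 23.8, 23.9 and 27.5 CPM in ref4-1 (log2 fold change -1.30 ± 0.11 SE, adjusted p = 7.14e-09), a level near the WT mean of 8.999 ± 1.56 CPM. KFB50 had 128, 127 and 131 CPM in ref4-3 cdk8-1, against 165, 172 and 185 CPM in ref4-1 (log2 fold change -0.43 ± 0.062 SE, adjusted p = 8.42e-06), against 68.3 ± 4.19 CPM in WT. KFB-CHS, the chalcone synthase regulator, was lower than WT in both, at 17.8, 16.6 and 17.44 CPM in ref4-3 cdk8-1, against 23.4, 21.6 and 28.4 CPM in ref4-1 and 62.0 ± 4.66 CPM in WT (log2 fold change -0.49 ± 0.11 SE, adjusted p = 0.00131). KFB20 had 29.4, 25.5 and 29.6 CPM in ref4-3 cdk8-1, against 20.1, 21.0 and 35.1 CPM in ref4-1 and overlapped between the groups (log2 fold change 0.18 ± 0.18 SE, adjusted p = 0.476).

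Flavonoid and anthocyanin genes, 15 of 21 of which were called higher in ref4-1 than in WT (10.7% of all genes), showed 3 higher and 3 lower calls in ref4-3 cdk8-1 against ref4-1 (median -0.17), shares no greater than the 17.2% and 19.2% of all genes. CHS, the first enzyme of the pathway, had 149.97, 179.9 and 209 CPM in ref4-3 cdk8-1, against 185, 193 and 178 CPM in ref4-1, overlapping (log2 fold change -0.05 ± 0.21 SE, adjusted p = 0.886). The flavonol synthase gene FLS1 had 80.4, 82.6 and 94.8 CPM in ref4-3 cdk8-1, against 49.1, 50.8 and 66.0 CPM in ref4-1 (log2 fold change 0.65 ± 0.11 SE, adjusted p = 0.000278) and the flavonol regulator MYB111 22.4, 20.6 and 22.4 CPM in ref4-3 cdk8-1, against 9.61, 13.6 and 12.2 CPM in ref4-1 (log2 fold change 0.88 ± 0.15 SE, adjusted p = 0.000138); both were above ref4-1 in every library. UGT78D1, a flavonol glycosyltransferase gene, was lower (log2 fold change -0.87). The interval lay within 1.5-fold for 4 of the 21 genes, so for most of this list the data did not resolve whether the mutants were alike, and lower calls numbered 1 when replicate 1 of ref4-1, or replicate 1 or 2 of ref4-3 cdk8-1, was left out.

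Cell cycle and reference genes differed by small amounts. All 16 cell cycle and DNA replication genes had intervals within 1.5-fold (64.2% of all genes did). Among them were 1 higher and 5 lower calls (median -0.14), where 17.2% of all genes were higher and 19.2% lower. Lower calls numbered 1 without replicate 1 of ref4-1 and 2 without replicate 1 of ref4-3 cdk8-1. The 1 higher call was lost without replicate 2 of ref4-1 or any 1 of the ref4-3 cdk8-1 libraries. KN, the cytokinesis syntaxin KNOLLE, had 25.1, 23.0 and 24.4 CPM in ref4-3 cdk8-1, against 31.3, 31.4 and 33.0 CPM in ref4-1 (log2 fold change -0.40 ± 0.075 SE, adjusted p = 0.000218). All 8 commonly used reference genes were within 1.5-fold, and 1, ACT2, was called (-0.26 on the log2 scale). Aliphatic glucosinolate genes, a separate group, had 3 higher and 6 lower calls of 15 (median -0.05), beside the same shares of all genes. For 11 of the 15 the interval lay within 1.5-fold. Lower calls numbered 3 without replicate 1 of ref4-3 cdk8-1. Among the called genes were the regulator MYB28, higher by 0.60, and the core enzyme CYP83A1, lower (log2 fold change -0.54).

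Salicylic acid defence genes were lower without exception. All 26 genes of the list were called lower in ref4-3 cdk8-1 (19.2% of all genes were), with a median log2 fold change of -2.33 against -0.000232 for all genes, and for none did the libraries overlap (46.8% of all genes). In ref4-3 against ref4-1 none of the 26 was called and the median was -0.00181. In ref4-1 against WT 18 were called higher (10.7% of all genes) and none lower, and all 26 ref4-3 cdk8-1 means were below the WT means.

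PR1 (AT2G14610), a secreted defence protein and the usual readout of salicylic acid signalling, had 31.2, 22.4 and 16.5 CPM in ref4-3 cdk8-1, against 476, 266 and 581 CPM in ref4-1 (log2 fold change -4.23 ± 0.46 SE, adjusted p = 3.21e-05). PR2 (AT3G57260), a glucanase, had 53.6, 39.4 and 57.3 CPM in ref4-3 cdk8-1, against 891, 695 and 814 CPM in ref4-1 (log2 fold change -4.00 ± 0.39 SE, adjusted p = 1.4e-05). PR5 (AT1G75040), a thaumatin-like protein, had 98.8, 72.1 and 112 CPM in ref4-3 cdk8-1, against 785, 871 and 1202 CPM in ref4-1 (log2 fold change -3.34 ± 0.33 SE, adjusted p = 1.85e-05). In these 3 genes every ref4-3 cdk8-1 library was below every ref4-1 library, and the WT means were 111, 288 and 132 CPM.

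The synthesis genes fell with their targets. ICS1 (AT1G74710), the isochorismate synthase that makes most salicylic acid, had 11.6, 11.7 and 11.8 CPM in ref4-3 cdk8-1, against 32.1, 34.6 and 39.7 CPM in ref4-1 (log2 fold change -1.59 ± 0.14 SE, adjusted p = 7.46e-08). EDS5, the chloroplast transporter that exports the isochorismate, had 5.86, 5.46 and 4.60 CPM in ref4-3 cdk8-1, against 33.0, 35.7 and 24.1 CPM in ref4-1 (log2 fold change -2.56 ± 0.14 SE, adjusted p = 6.38e-11). The regulators of ICS1 were also lower: SARD1 (AT1G73805) had 7.21, 7.74 and 9.12 CPM in ref4-3 cdk8-1, against 49.1, 55.5 and 58.2 CPM in ref4-1 (log2 fold change -2.76 ± 0.15 SE, adjusted p = 1.01e-09), and CBP60g changed by -1.74 on the log2 scale. EDS1 and PAD4, the lipase-like partners that act upstream, were lower (log2 fold changes -0.96 and -2.08). The receptors NPR1, NPR4 and NPR3 showed the smallest falls along with WRKY70, with log2 fold changes of -0.24, -0.36, -0.64 and -0.74.

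WRKY38 (AT5G22570), a target of the pathway, had 0.857, 0.508 and 0.657 CPM in ref4-3 cdk8-1, against 16.1, 11.2 and 15.2 CPM in ref4-1 (log2 fold change -4.38 ± 0.27 SE, adjusted p = 1.86e-10), the greatest fall of the list. DLO1, a salicylic acid 3-hydroxylase that removes the hormone, had 2.86, 1.78 and 3.21 CPM in ref4-3 cdk8-1, against 44.8, 44.6 and 69.7 CPM in ref4-1 (log2 fold change -4.34 ± 0.40 SE, adjusted p = 9.23e-06). ALD1 and FMO1, which make the systemic immune signal N-hydroxypipecolic acid, were lower (log2 fold changes -4.16 and -3.54). Low depth touches the last 2, whose means were 0.377 and 0.423 CPM in ref4-3 cdk8-1, against 6.62 and 4.96 CPM in ref4-1.

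Jasmonate genes fell as well, with more spread. Of 23 genes 21 were called lower (19.2% of all genes were lower) and none higher in ref4-3 cdk8-1 against ref4-1 (median -1.98). None was called in ref4-3 against ref4-1 (median -0.61), and 1 was called lower in ref4-1 against WT (10.3% of all genes). LOX2, which opens jasmonate synthesis in the chloroplast, had 1564, 1653 and 1934 CPM in ref4-3 cdk8-1, against 8032, 7825 and 4971 CPM in ref4-1 (log2 fold change -2.02 ± 0.23 SE, adjusted p = 3.54e-05). MYC2, the central transcription factor, had 110.3, 114 and 141 CPM in ref4-3 cdk8-1, against 372, 380.3 and 247 CPM in ref4-1 (log2 fold change -1.45 ± 0.23 SE, adjusted p = 0.000559). JAZ10, a repressor that the hormone induces, had 6.14, 7.42 and 7.08 CPM in ref4-3 cdk8-1, against 66.7, 40.1 and 13.6 CPM in ref4-1 (log2 fold change -2.58 ± 0.55 SE, adjusted p = 0.00412). In these genes the lowest ref4-1 library was replicate 3, which still lay above all ref4-3 cdk8-1 libraries; without it the list's median was -2.20. Without replicate 2 of ref4-1, 1 gene of the list was called higher. COI1, the receptor, and JAR1, the enzyme that conjugates the hormone, were not called (0.19 and -0.03 on the log2 scale).

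Defensin and ethylene-jasmonate genes were lower throughout, 9 of 9 (median -2.37), where 19.2% of all genes were lower. Of the 9, 7 were already lower in ref4-1 than in WT (10.3% of all genes were). PDF1.2A (AT5G44420), whose upstream GCC box is shown above, had 1.71, 0.571 and 1.53 CPM in ref4-3 cdk8-1, against 109, 76.8 and 42.8 CPM in ref4-1 (log2 fold change -5.94 ± 0.61 SE, adjusted p = 2.14e-05), against 1197 ± 257 CPM in WT. PDF1.2C had 0.0714, 0.0635 and 0.365 CPM in ref4-3 cdk8-1, against 41.8, 28.6 and 22.6 CPM in ref4-1 (log2 fold change -7.52 ± 0.75 SE, adjusted p = 1.85e-05). PDF1.2B had 2 reads over the 3 ref4-3 cdk8-1 libraries and 296 over the 3 ref4-1 libraries, a ratio of 156 in favour of ref4-1 (exact 95% interval 42.9 to 1298, counting error only). The PDF1 genes are near-identical copies that can share reads, so single values among them are uncertain. ORA59, the ethylene response factor that drives them, had 1.21, 1.27 and 1.39 CPM in ref4-3 cdk8-1, against 5.67, 4.37 and 5.06 CPM in ref4-1 (log2 fold change -1.95 ± 0.25 SE, adjusted p = 2.54e-06), and PR4, a hevein-like protein of the same response, had 30.2, 25.3 and 26.9 CPM in ref4-3 cdk8-1, against 164, 127 and 134 CPM in ref4-1 (log2 fold change -2.37 ± 0.14 SE, adjusted p = 1.52e-08).

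**Figure D3:**
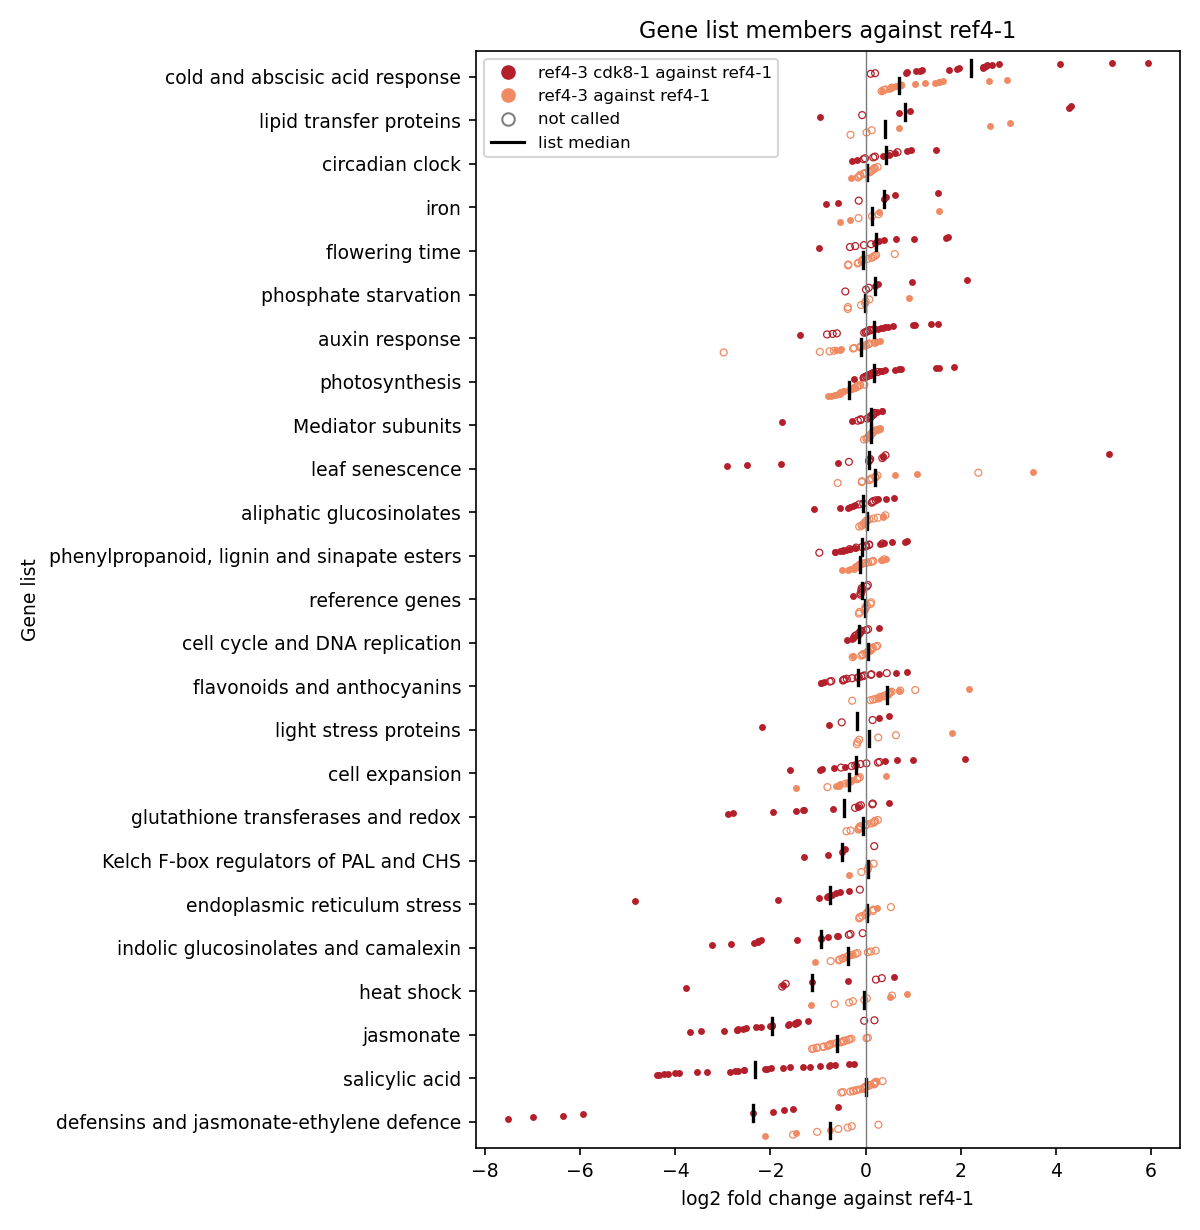
Log2 fold change against ref4-1 of every tested member of 25 gene lists, for ref4-3 cdk8-1 (dark red, upper line of each row) and ref4-3 (orange, lower line); filled points are called, open points are not, and black ticks are list medians. Salicylic acid genes have a median of -2.33 in ref4-3 cdk8-1 and -0.00181 in ref4-3, cold and abscisic acid genes one of 2.21 and 0.70, and phenylpropanoid genes one of -0.07 and -0.11.

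Of the indolic glucosinolate and camalexin genes, which make tryptophan-derived defence compounds, 12 of 15 were lower (19.2% of all genes were) and none higher (median -0.94; -1.21 without replicate 3 of ref4-1). PAD3 (AT3G26830), the last enzyme of camalexin synthesis, had 3.21, 4.70 and 3.58 CPM in ref4-3 cdk8-1, against 39.1, 43.8 and 23.4 CPM in ref4-1 (log2 fold change -3.23 ± 0.31 SE, adjusted p = 9.34e-06). MYB51, an activator of the indolic branch, had 4.07, 4.76 and 4.23 CPM in ref4-3 cdk8-1, against 9.33, 11.7 and 15.2 CPM in ref4-1 (log2 fold change -1.44 ± 0.15 SE, adjusted p = 1.39e-07). In ref4-1 against WT 8 of the 15 were lower (10.3% of all genes were). The WT means of the 2 genes were 65.9 and 20.9 CPM, above both mutants.

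Of 10 endoplasmic reticulum stress genes, which are 8 chaperones and folding enzymes of the secretory pathway and the transcription factors BZIP60 and BZIP28, 9 were lower (19.2% of all genes were lower) and none higher (median -0.75). The gene not called was BZIP28 (log2 fold change -0.12). BIP3 (AT1G09080), the stress-inducible lumenal HSP70, had 0.214, 0.952 and 0.657 CPM in ref4-3 cdk8-1, against 14.99, 21.2 and 17.62 CPM in ref4-1 (log2 fold change -4.84 ± 0.32 SE, adjusted p = 1.64e-08). CNX1, calnexin, had 228, 222 and 259 CPM in ref4-3 cdk8-1, against 454, 414 and 380.5 CPM in ref4-1 (log2 fold change -0.82 ± 0.074 SE, adjusted p = 1.32e-08), and ERDJ3A, a J-protein, had 3.14, 3.11 and 2.92 CPM in ref4-3 cdk8-1, against 11.9, 9.43 and 12.1 CPM in ref4-1 (log2 fold change -1.85 ± 0.14 SE, adjusted p = 1.26e-09). All 10 list means in ref4-3 cdk8-1 were below WT, and 9 of the 10 in ref4-1 were above it.

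Redox and glutathione transferase genes included 8 lower and 1 higher of 14 (median -0.45), against 19.2% of all genes lower and 17.2% higher. Among the lower ones were OXI1, a kinase activated by hydrogen peroxide, at 0.286, 0.635 and 0.584 CPM in ref4-3 cdk8-1, against 3.87, 3.43 and 3.38 CPM in ref4-1 (log2 fold change -2.80 ± 0.31 SE, adjusted p = 2.44e-07), and the ascorbate peroxidase APX1 at 442, 456 and 484 CPM in ref4-3 cdk8-1, against 667, 722 and 831 CPM in ref4-1 (log2 fold change -0.68 ± 0.075 SE, adjusted p = 2.19e-07). Higher calls of that list numbered 2 without replicate 3 of ref4-1 or replicate 2 of ref4-3 cdk8-1. Of 9 heat shock genes 4 were lower and 1 higher, against the same shares of all genes (2 higher without replicate 3 of ref4-3 cdk8-1). HSFA2, a heat-induced transcription factor, had 0.143, 0.317 and 0.511 CPM in ref4-3 cdk8-1, against 3.66, 5.41 and 4.32 CPM in ref4-1 (log2 fold change -3.77 ± 0.33 SE, adjusted p = 9.96e-09). The median of the heat shock list, -1.12, was -0.37 where genes had to pass 5 CPM.

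Cold, drought and abscisic acid genes went the other way. Of 20 genes tested, 18 were higher in ref4-3 cdk8-1 than in ref4-1 (17.2% of all genes were) and none was lower, with a median log2 fold change of 2.21. For the same 18 the libraries did not overlap (46.8% of all genes). Between ref4-3 and ref4-1 15 of the 20 were higher (4.66% of all genes) and the median was 0.70. CBF1, the list's other member, did not pass the filter on low counts.

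RD29A (AT5G52310), the gene with 3 DRE cores, had 2003, 1977 and 1948 CPM in ref4-3 cdk8-1, against 279.6, 322 and 246 CPM in ref4-1 (log2 fold change 2.80 ± 0.088 SE, adjusted p = 3.11e-16). RD29B (AT5G52300), its neighbour on chromosome 5, had 74.3, 82.7 and 83.3 CPM in ref4-3 cdk8-1, against 0.898, 2.096 and 0.527 CPM in ref4-1 (log2 fold change 5.93 ± 0.28 SE, adjusted p = 4.54e-09). COR15A (AT2G42540), a chloroplast cryoprotectant, had 2116, 2295 and 2362 CPM in ref4-3 cdk8-1, against 415, 538 and 260.1 CPM in ref4-1 (log2 fold change 2.48 ± 0.22 SE, adjusted p = 7.08e-06). Every ref4-3 cdk8-1 library was above every ref4-1 library for these genes, and the ref4-3 means lay between, at 669, 10.4 and 1256 CPM.

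KIN1 (AT5G15960), a small cold-induced protein with a near-identical copy in KIN2, had 584, 645 and 729 CPM in ref4-3 cdk8-1, against 17.62, 23.2 and 11.6 CPM in ref4-1 (log2 fold change 5.18 ± 0.27 SE, adjusted p = 8.35e-08). RAB18 (AT5G66400), a dehydrin induced by abscisic acid, had 202, 253 and 259 CPM in ref4-3 cdk8-1, against 13.3, 12.3 and 17.3 CPM in ref4-1 (log2 fold change 4.09 ± 0.29 SE, adjusted p = 1.17e-06). P5CS1 (AT2G39800), the rate-limiting enzyme of proline synthesis, had 1078, 1038 and 1008 CPM in ref4-3 cdk8-1, against 177, 175 and 142 CPM in ref4-1 (log2 fold change 2.66 ± 0.081 SE, adjusted p = 3.11e-16). The cdk8-1 means of the 3 were 22.8, 6.86 and 262 CPM, far below ref4-3 cdk8-1.

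Upstream regulators in the list were also higher. CBF3 (DREB1A), which binds the DRE core, had 23.0, 21.5 and 21.5 CPM in ref4-3 cdk8-1, against 2.42, 4.37 and 5.27 CPM in ref4-1 (log2 fold change 2.49 ± 0.17 SE, adjusted p = 5.93e-10). NCED3, the rate-limiting enzyme of abscisic acid synthesis, had 14.9, 12.1 and 15.1 CPM in ref4-3 cdk8-1, against 7.26, 9.20 and 6.54 CPM in ref4-1 (log2 fold change 0.84 ± 0.16 SE, adjusted p = 0.000186). The phosphatase gene ABI2, a feedback target of the hormone, was higher by 1.14, while ABI1 and RD26 were not called (0.11 and 0.20 on the log2 scale).

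The lipid transfer protein list had 4 higher (17.2% of all genes) and 1 lower of 6. LTP3 had 165, 191 and 198 CPM in ref4-3 cdk8-1, against 8.29, 11.6 and 8.12 CPM in ref4-1 (log2 fold change 4.27 ± 0.22 SE, adjusted p = 3.43e-08) and LTP4 115, 119 and 124 CPM in ref4-3 cdk8-1, against 3.80, 6.99 and 7.38 CPM in ref4-1 (log2 fold change 4.32 ± 0.27 SE, adjusted p = 3.31e-07); the 2 are near-identical neighbours, so their single values are uncertain. In both, every ref4-3 cdk8-1 library was above every ref4-1 library.

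**Figure D4:**
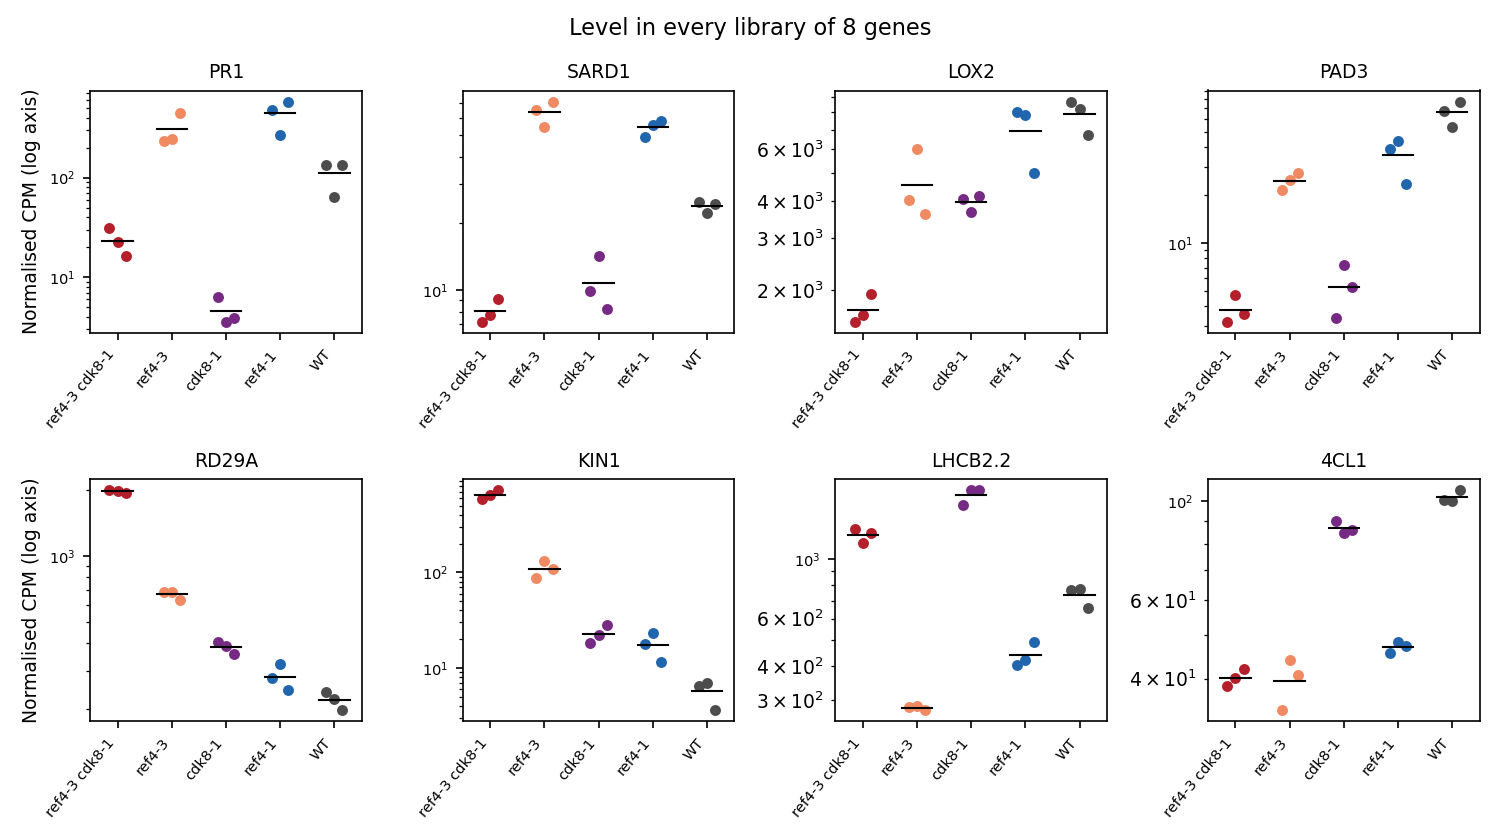
CPM on log axes of 8 genes in every library of the 5 genotypes; points are libraries and lines are means (n = 3). PR1, SARD1, LOX2 and PAD3 are lower in ref4-3 cdk8-1 than in ref4-1, RD29A, KIN1 and LHCB2.2 are higher, and 4CL1 is low in ref4-3 cdk8-1 and ref4-1 alike, at means of 40.2 and 47.1 CPM, against 102 CPM in WT.

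Photosynthesis genes had 11 higher (17.2% of all genes) and 1 lower of 25 (median 0.17), and 17 higher without replicate 3 of ref4-1; the 1 lower call was lost when any 1 of the 6 libraries other than replicate 1 of ref4-1 was left out. The rise was greatest in the LHCB2 antenna genes, which encode light-harvesting proteins of photosystem II. LHCB2.1 had 1049, 943 and 986 CPM in ref4-3 cdk8-1, against 302, 334 and 384 CPM in ref4-1 (log2 fold change 1.55 ± 0.079 SE, adjusted p = 3.19e-12) and LHCB2.3 had 272, 247 and 264 CPM in ref4-3 cdk8-1, against 59.8, 72.0 and 86.4 CPM in ref4-1 (log2 fold change 1.85 ± 0.10 SE, adjusted p = 9.5e-11); reads of LHCB2.1 and LHCB2.2 can be shared. RBCS1A, a Rubisco small subunit, had 9971, 11413 and 10949 CPM in ref4-3 cdk8-1, against 9142, 10352 and 11223 CPM in ref4-1 and overlapped (log2 fold change 0.07 ± 0.082 SE, adjusted p = 0.516). In ref4-3 against ref4-1, 18 of the 25 genes were lower (6.41% of all genes) and none higher. Summed over the list, ref4-3 cdk8-1 libraries held 69151 to 71859.7 CPM, ref4-3 libraries 46412 to 51196 CPM and ref4-1 libraries 53570.4 to 68602 CPM. WT libraries held 78674 to 81914 CPM and cdk8-1 libraries 96924 to 101786 CPM, both above ref4-3 cdk8-1. In ref4-1 against WT 20 of the 25 genes were lower (10.3% of all genes). In cdk8-1 against WT 16 were higher (8.08% of all genes). The median in ref4-3 cdk8-1 against WT was -0.22.

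Most of the smaller groups held calls in both directions. Of all genes, 17.2% were higher and 19.2% lower. Of 21 auxin response genes 10 were higher and 1 lower, with the Aux/IAA repressors IAA3 at 36.2, 34.6 and 37.4 CPM in ref4-3 cdk8-1, against 18.8, 18.4 and 14.8 CPM in ref4-1 (log2 fold change 1.04 ± 0.08 SE, adjusted p = 1.21e-09) and IAA14 at 16.1, 13.3 and 15.2 CPM in ref4-3 cdk8-1, against 5.74, 5.12 and 6.54 CPM in ref4-1 (log2 fold change 1.37 ± 0.15 SE, adjusted p = 2.1e-07), and the conjugating enzyme GH3.3 lower (log2 fold change -1.38). Clock genes had 6 higher and 2 lower of 14 (1 lower without replicate 1 or 3 of ref4-1 or replicate 2 of ref4-3 cdk8-1), with the clock repressor PRR7 at 175, 179 and 156 CPM in ref4-3 cdk8-1, against 97.8, 98.7 and 79.7 CPM in ref4-1 (log2 fold change 0.88 ± 0.076 SE, adjusted p = 6.41e-09). Flowering-time genes had 8 higher and 1 lower of 13, including the repressors MAF4 and FLC, higher by 1.69 and 1.03, and TEM1, lower (log2 fold change -0.99); the lowest levels of MAF4 and FLC were under 1 CPM in ref4-1.

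With those shares of all genes for comparison, the phosphate list had 4 higher and none lower of 7, with the phosphate sensor SPX1 at 17.2, 18.5 and 20.9 CPM in ref4-3 cdk8-1, against 10.2, 8.44 and 10.7 CPM in ref4-1 (log2 fold change 0.97 ± 0.13 SE, adjusted p = 2.64e-06). The iron list had 4 higher and 2 lower of 7 (1 lower without replicate 2 or 3 of ref4-1 or replicate 1 or 2 of ref4-3 cdk8-1), among them the iron reductase FRO2, higher by 1.51. Cell expansion genes had 4 higher and 6 lower of 17. The expansin genes EXPA15 and EXPA6 had log2 fold changes of 0.67 and -0.66, and the xyloglucan hydrolase family genes XTH17 and XTH19, at the ends of the list, 2.099 and -1.59. Leaf senescence genes had 3 higher and 4 lower of 13, the transcription factor WRKY53 at 2.71, 1.59 and 1.68 CPM in ref4-3 cdk8-1, against 16.7, 12.4 and 16.4 CPM in ref4-1 (log2 fold change -2.92 ± 0.28 SE, adjusted p = 1.11e-06) and the sugar transporter SAG29 at 15.8, 15.7 and 12.5 CPM in ref4-3 cdk8-1, against 0.346, 0.466 and 0.422 CPM in ref4-1 (log2 fold change 5.12 ± 0.47 SE, adjusted p = 1.34e-06) lying at the 2 ends.

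Light stress genes had 2 higher and 2 lower of 6, beside 17.2% and 19.2% of all genes. Higher calls numbered 0 without replicate 1 of ref4-1, and 1 without replicate 3 of ref4-1 or of ref4-3 cdk8-1. ZAT12, a zinc finger regulator of stress responses, was lower (log2 fold change -2.17). Apart from the phosphate list, these last groups held calls in both directions. Those of the auxin list (10 higher, 1 lower) and of the flowering-time list (8 higher, 1 lower) were mostly higher.

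Beyond the lists, the 12 greatest rises among non-overlapping genes that averaged 5 CPM or more over the 6 libraries included RD29B, KIN1, LTP4, SAG29 and MRD1, described above. LEA7, a late embryogenesis abundant protein, had 10.4, 15.9 and 17.9 CPM in ref4-3 cdk8-1, against 0.138, 0.291 and 0 CPM in ref4-1 (log2 fold change 6.36 ± 0.51 SE, adjusted p = 7.74e-07), and AT3G02480, of the same class, had 13.2, 22.5 and 24.4 CPM in ref4-3 cdk8-1, against 0.760, 0.815 and 0.527 CPM in ref4-1 (log2 fold change 4.77 ± 0.44 SE, adjusted p = 2.53e-06). CIPK25, a kinase that calcium sensors control, had 14.0, 14.7 and 15.2 CPM in ref4-3 cdk8-1, against 0.346, 0.640 and 0 CPM in ref4-1 (log2 fold change 5.21 ± 0.32 SE, adjusted p = 7.73e-11). AT1G67105, which carries no product name in the annotation, had 21.4, 18.1 and 15.1 CPM in ref4-3 cdk8-1, against 0.276, 0.233 and 0.527 CPM in ref4-1 (log2 fold change 5.80 ± 0.33 SE, adjusted p = 7.41e-11), and its mean was 0.323, 0.425 and 0.310 CPM in ref4-3, cdk8-1 and WT.

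The 12 greatest falls by the same rule held 3 PDF1 defensins and BIP3, described above; PDF1.2B (log2 fold change -7.00) averaged less than that. FH3 (AT4G15200), a formin that nucleates actin, had 0, 0.190 and 0.146 CPM in ref4-3 cdk8-1, against 11.9, 11.6 and 6.65 CPM in ref4-1 (log2 fold change -6.37 ± 0.53 SE, adjusted p = 2.14e-07), with 0.260 ± 0.231 CPM in cdk8-1 and 8.73 ± 2.00 CPM in WT. QQS (AT3G30720), an orphan gene that alters starch content, had 0.4999, 0.761 and 0.438 CPM in ref4-3 cdk8-1, against 30.9, 34.6 and 34.2 CPM in ref4-1 (log2 fold change -5.83 ± 0.33 SE, adjusted p = 7.15e-09). PNP-A (AT2G18660), a secreted natriuretic-like peptide, had 0.643, 0.698 and 1.46 CPM in ref4-3 cdk8-1, against 27.7, 17.99 and 34.2 CPM in ref4-1 (log2 fold change -4.81 ± 0.49 SE, adjusted p = 1.62e-05). In all 3, the libraries of ref4-3 cdk8-1 and ref4-1 did not overlap.

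A comparison that shares no library with this one, cdk8-1 against WT, gives the change that goes with the CDK8 genotype in plants with normal MED5B. It was added with the results above in view. There 3712 genes (19.6%) were called, 1530 higher (8.08%) and 2182 lower (11.5%). Of the 1530 genes higher in cdk8-1, 983 (64.2%) were also higher in ref4-3 cdk8-1 against ref4-1 (17.2% of all genes were). They made up 30.2% of the 3251 higher genes there. Of the 2182 lower in cdk8-1, 1611 (73.8%) were also lower in ref4-3 cdk8-1 against ref4-1 (19.2% of all genes were). They made up 44.4% of the 3627 lower genes there. Opposite calls numbered 71. Among the salicylic acid genes 20 of 26 were lower in cdk8-1 than in WT, and among the jasmonate genes 6 of 23. In cdk8-1 against WT the cold and abscisic acid list had 12 higher and 1 lower of 20 genes, with a median log2 fold change of 0.89. KIN1 and P5CS1 were among the higher ones, by 1.99 and 1.21 on the log2 scale, while RD29B and RAB18 were not called (1.03 and -0.19). Opposite calls numbered 46 without replicate 1 of WT.

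Markers of cell types were measured beside these groups. For comparison with their counts, 17.2% of all genes were called higher and 19.2% lower in ref4-3 cdk8-1 against ref4-1. Of 7 xylem genes 5 were higher and none lower in ref4-3 cdk8-1 (median 0.45), and their summed level was 113 to 151 CPM in ref4-3 cdk8-1, against 69.1 to 80.3 CPM in ref4-1. The sums were 63.5 to 90.6 CPM in ref4-3, 97.1 to 112 CPM in WT and 144 to 159 CPM in cdk8-1. In ref4-1 against WT 4 of the 7 were lower (10.3% of all genes). The median in ref4-3 cdk8-1 against WT was 0.03. XCP1, a xylem peptidase, had 43.7, 37.3 and 52.9 CPM in ref4-3 cdk8-1, against 17.3, 11.7 and 12.97 CPM in ref4-1 (log2 fold change 1.67 ± 0.19 SE, adjusted p = 1.59e-05). Their part in the rise of the lignin laccases was not tested. Of 6 guard cell lineage genes 3 were higher (1 without replicate 1 of ref4-3 cdk8-1), with sums of 103 to 109 CPM in ref4-3 cdk8-1 and 66.3 to 85.0 CPM in ref4-1; the potassium channel gene GORK, also induced by abscisic acid, had 30.7, 30.8 and 28.5 CPM in ref4-3 cdk8-1, against 11.7, 11.8 and 7.59 CPM in ref4-1 (log2 fold change 1.496 ± 0.13 SE, adjusted p = 1.3e-08).

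Summed levels overlapped between the groups for phloem genes, at 235 to 281 CPM in ref4-3 cdk8-1 and 236 to 292 CPM in ref4-1, and for trichome and epidermis genes, at 229 to 277 CPM in ref4-3 cdk8-1 and 224 to 319 CPM in ref4-1. Single genes did differ, where 36.3% of all genes were called. Of the 3 phloem genes SEOB was called lower (log2 fold change -0.29). Of the 5 trichome and epidermis genes TRY was called higher (0.82) and GL1 and GL2 lower (-0.82 and -0.87). The calls of SEOB, TRY, GL1 and GL2 were each lost when some single libraries were left out. The 4 root markers had no reads in ref4-3 cdk8-1 and at most 0.0582 CPM in ref4-1. Sums over the 3 seed storage markers reached 0.928 CPM in ref4-3 cdk8-1 and 0.276 CPM in ref4-1, and sums over the 5 flower markers reached 2.07 CPM in ref4-3 cdk8-1 and 4.08 CPM in ref4-1.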

How the data were processed

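The authors deposited raw counts, whole numbers of reads for each gene. Per the submitters' processing notes, the authors used Trimmomatic, TopHat2 2.1.0, HTSeq 0.6.1 and edgeR with the TAIR10 build; no counting mode or strand setting was found in those sources, so reads of genes that overlap on opposite strands may not be told apart. Per the labels' protocols, a stranded kit selecting polyadenylated RNA was used, with 2 ug of input RNA.

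The 5 summary rows that name no gene were left out throughout. Relative to gene counts, reads with no unique position came to 2.37% to 6.62%. Genes with CPM above 1 in at least 3 libraries were kept. All 15 libraries entered 1 robust quasi-likelihood fit of genotype in edgeR 4.0.16 (R 4.3.3) with TMM scaling and a prior count of 0.125. Its median biological coefficient of variation was 6.96%. The code was run on simulated counts that used the fitted spread and few changed genes. That run does not check the fit or the scaling where many genes change. The SE is the log2 fold change over the root of the F statistic. The distance used log2 CPM with a prior count of 2. No 2 replicates agreed within sampling noise (chi-square per degree of freedom 2.68 to 15.1), so each counted once. Names and promoters came from TAIR10.1, in which 32834 of 33601 locus tags matched.

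The comparisons, gene lists, motifs and naming rule were chosen with earlier results of these data known. The rule named the mutated genes and DJC66, the 12 greatest rises and falls of the comparison among called, non-overlapping genes averaging 5 CPM or more over the libraries compared, the corresponding 8 of ref4-1 against WT and 6 of ref4-3 against ref4-1, and up to 3 members per list with the smallest adjusted p; not all are described. Other list members were named for their known roles after their values were seen. Alternatives were other scaling, DESeq2 1.42.0, limma-voom (limma 3.58.1), other filters, the 6 libraries alone, a replicate block, leaving out each ref4-3 cdk8-1 or ref4-1 library in turn (for the distance also each ref4-3 library) and, chosen after seeing the data, each WT or cdk8-1 library for the counts that use those genotypes.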

Additional observations from a re-analysis of the deposited data

How the results depend on the processing

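Scaling by DESeq2 size factors, DESeq2, limma-voom, no filter on low counts, the 6 libraries alone and the replicate block each kept the counts of called genes within 1.5 times of those reported. Where genes had to pass 5 CPM, 252 were called at least 2-fold higher and 765 at least 2-fold lower in ref4-3 cdk8-1, for fewer genes were tested. Leaving out 1 ref4-3 cdk8-1 or ref4-1 library (for the distance also ref4-3) gave 5601 to 6323 calls between ref4-3 cdk8-1 and ref4-1 (2585 to 2952 higher, 2951 to 3371 lower), 432 to 473 at least 2-fold higher, 1113 to 1196 at least 2-fold lower, 11279 to 12079 genes within 1.5-fold, 1469 to 2063 calls between ref4-3 and ref4-1, and a difference in distance of 0.312 to 0.335. With WT and cdk8-1 libraries also left out in turn, an alternative chosen after seeing the data, calls ran from 2734 to 4214 in cdk8-1 against WT and from 3066 to 4018 in ref4-1 against WT. Calls shared between ref4-3 cdk8-1 against ref4-1 and cdk8-1 against WT ran from 757 to 1113 higher and from 1262 to 1668 lower, with 46 to 85 opposite. No scaling or filter moved the median of all genes by 0.1 on the log2 scale.

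Deviations of ref4-3 cdk8-1 and ref4-1 libraries with the same replicate number correlated at -0.0253, 0.160 and -0.0103. Those with different numbers correlated at -0.116 to 0.102. So few pairs cannot settle whether the replicate number marks paired samples. With the replicate number as a block, 7024 genes were called, 3340 higher and 3684 lower.

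Of 122 named genes under the alternatives, no fold change turned its sign, and 33 of their calls were lost, in ELIP1, GL1, GL2, KAT1, MCM7, OHP2, PCNA2, SEOB, SPCH, TPS03, TRY and VND7. The median of the light stress list, below 0 as reported, was 0.15 with no filter, 0.14 above 5 CPM and ran from -0.39 (without replicate 3 of ref4-3 cdk8-1) to 0.0496 (without replicate 1 of ref4-3 cdk8-1) when 1 library was left out; that of the flower markers, of which 1 passed the filter, was -1.78 with no filter. The cause was not tested. Depth limits the genes under about 1 CPM, for which 1 read was worth 0.0595 to 0.104 CPM in these 6 libraries.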
